A study of Mus musculus with 15 samples.

Results

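The 55 genes described here carry the name of a mouse translation initiation factor. They were chosen as every gene whose symbol starts with Eif and a digit in all 15 expression tables, leaving out Eif2s3x and Eif2s3y, and make up 55 of the 20207 genes listed. The name covers more than initiation factors: Eif2c1 to Eif2c4 are older symbols of the Argonaute genes Ago1 to Ago4, which carry small RNAs, Eif2ak1 to Eif2ak4 are kinases that phosphorylate eIF2, and Eif4ebp1, Eif4ebp2, Eif4ebp3 and Eif4enif1 encode proteins that bind eIF4E. Of the 55 genes, 52 had at least 1 count in every library and were tested, among 10276 such genes. The other three, Eif2c4, Eif4e1b and Eif4ebp3, are given by their levels only.

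Initiation brings a ribosome to the start codon of an mRNA. The small subunit loads eIF1, eIF1A, eIF3 and a complex of eIF2, GTP and initiator tRNA, while eIF4F, built from the cap binder eIF4E, the scaffold eIF4G and the helicase eIF4A, recruits the mRNA. eIF5 and eIF5B act at start codon selection and subunit joining, and eIF2B recharges eIF2 with GTP. Phosphorylation of eIF2 by stress kinases blocks eIF2B and lowers protein synthesis, and binding of eIF4E by the 4E-BP proteins, under control of mTOR, lowers cap-dependent initiation.

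RNA was sequenced from NIH3T3 cells, a mouse fibroblast line, that stably expressed DD-sfGFP, a destabilizing domain (DD) derived from FKBP12 and fused to superfolder GFP, in a population sorted for high expression. The ligand Shield-1 (S1) holds the DD folded, and its removal leaves an unfolded protein in the cytosol and nucleus. All groups carried DD-sfGFP and none lacked it: cont libraries (n = 5, time 0, no stress) kept S1, and the groups DD 45min (n = 3), DD 135min (n = 3) and DD 405min (n = 4) were collected 45, 135 and 405 min after S1 removal with a purified FKBP mutant that takes up the ligand. The labels do not say that replicates were separate cultures, so the p-values measure the spread between these libraries, which may be technical. In bulk RNA, fewer cells of a type and less RNA per cell cannot be told apart.

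Library totals ran from 6652539 counts in cont replicate 3 to 30258404 in DD 45min replicate 1, and the members took 1.5 to 1.71% of the counts. All 9 fibroblast markers checked were present in every library (median 1500 RPKM for Vim and 269 for Col1a1), and the highest median among 10 epithelial, leukocyte and endothelial markers was 0.806 RPKM, for Cd68. The libraries were split into 2 sets at the widest gap in how CPM depended on the GC content of the transcript. CPM is the count per total reads after scaling for library composition, a scaling left out for this dependence. In set 2 (5 libraries: cont replicate 2, DD 45min replicate 3 and DD 405min replicates 1, 2 and 4) log2 CPM changed by -0.359 to 0.048 for each 10 points of GC, and in set 1 (the other 10 libraries, with all DD 135min) by -1.35 to -0.642. The 405 min group thus held 3 of 4 libraries in set 2 and the controls 1 of 5, so the calls below are also given from a model with library set as a second term. Slopes also differed within set 1, from cont replicate 3 at -1.35 to DD 45min replicate 1 at -0.642, so the sets are a coarse split of this spread. A value with no model named is from the model with group alone.

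In control cells the members spanned more than 3 orders of magnitude in TPM, a level per length scaled to the same total in each library, computed from the deposited RPKM. The helicase Eif4a1 led with a median of 1039 TPM (702 to 1243 over the 5 control libraries), followed by the eIF3 subunits Eif3m at 1006, Eif3a at 968 and Eif3e at 900 and by Eif2s2, the beta subunit of eIF2, at 845. These leading ranges overlapped, so their order is not resolved. In cont replicate 2, the set 2 control, Eif5a led at 2087 TPM, above Eif4a1 at 1243, so the leading gene also differed between library sets. The regulators were lower. The eIF2B subunits ran from a median of 9.97 TPM for Eif2b4 to 47.6 for Eif2b3, and the eIF2 kinases from 7.07 for Eif2ak3 to 37.4 for Eif2ak2. All of these were below the eIF2 subunit genes Eif2s1 (164) and Eif2s2 and below Eif2a, the gene of eIF2A (114).

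Paralogs differed widely in level. Eif4a2 stood at a median of 108 TPM against 1039 for Eif4a1, and Eif5a2 at 9.11 TPM against 672 for Eif5a. Among cap binders, Eif4e had a median of 250 TPM, Eif4e2 147 and Eif4e3 0.453, while Eif4e1b was listed at 0 in 4 of 5 controls. Of the Argonautes, Eif2c1 was at 33.7 TPM, Eif2c2 at 24.9, Eif2c3 at 10.1 and Eif2c4 at 0.215. Eif4ebp3 had a median of 11.6 TPM, but 0 counts in cont replicate 3, which kept it from the test.

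**Figure D1:**
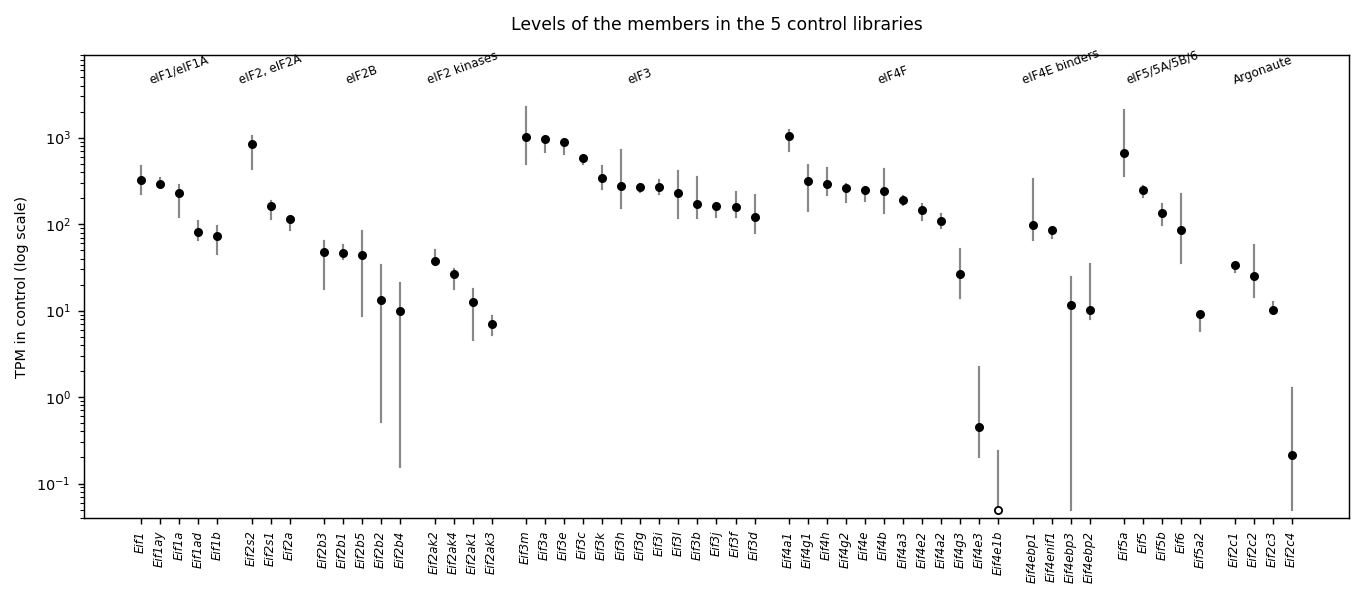
Levels of all 55 members in the 5 control libraries, in TPM on a log axis, grouped by role (points: median, lines: lowest to highest library; values under 0.05 are drawn at 0.05 and the open point marks a median of 0). The eIF3 and eIF4F genes hold most of the high levels, and Eif2b2 and Eif2b4 show the longest downward lines among tested genes, set by cont replicate 3.

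At 45 min no member passed the test. The members rose in 0 cases and fell in 0 of 52 (edgeR's quasi-likelihood test, Benjamini-Hochberg adjusted p under 0.05), where 0% of all tested genes were called in either direction. None of the 52 had an unadjusted p under 0.05, DESeq2 also called 0, and the lowest adjusted p in edgeR was 0.698. The pair with the lowest p were Eif2c2, the slicing Argonaute Ago2, at a log2 fold change of 0.57 ± 0.30 (SE; unadjusted p = 0.0815 in edgeR) and Eif3m at -0.86 ± 0.47 (unadjusted p = 0.0832 in edgeR). Eif2c2 was at 0.89 without cont replicate 2 and 0.37 without DD 45min replicate 3. Eif3m, at 1809 CPM in cont replicate 3 and 299 to 840 in the other controls, was at -0.37 without that library. Only Eif2b3, the gamma subunit of eIF2B, had all 3 libraries (49.5 to 51.8 CPM) above all 5 controls (17.8 to 47.4 CPM), 1.92% of the members against 0.467% of all tested genes, and none lay wholly below (0.448% of all tested genes). Within set 1 (2 libraries at 45 min against 4 controls), 13 members lay wholly above the controls (25%, beside 12% of all tested genes). Another 2 lay wholly below (3.85%, beside 12.4%). With library set in the model 0 members were called, 5 had an unadjusted p under 0.05, and the lowest adjusted p in edgeR was 0.488, while 0.0292% of all tested genes were called higher and 0.00973% lower.

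At 135 min again no member passed in the model with group alone, against 0.564% of all tested genes higher and 0.895% lower. The log2 fold changes were positive for 38 members and negative for 14, with a median of 0.15 beside -0.059 over all tested genes, and ranged from -0.61 to 0.74. The lowest adjusted p in edgeR was 0.174, for Eif2c3 (Ago3), and 3 members had an unadjusted p under 0.05. All 3 libraries at 135 min exceeded all controls for Eif2ak3, Eif2c3 and Eif3j, 5.77% of the members beside 4.79% of all tested genes, and 0 members lay wholly below (4.75% of all tested genes).

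All 135 min libraries belonged to set 1, and with library set in the model 5 members passed the test there. Of the 52 tested, 4 rose (7.69%, against 3.06% of all tested genes) and 1 fell (1.92%, against 4.88%). The 4 that rose were Eif4ebp2 (log2 fold change 0.90 ± 0.22, SE), Eif2c2 (0.75 ± 0.17), Eif3l (0.57 ± 0.15) and Eif4ebp1 (0.51 ± 0.15), with edgeR adjusted p of 0.0202, 0.0143, 0.0304 and 0.0446. The translation repressors Eif4ebp1 and Eif4ebp2 and the Argonaute Eif2c2 are not initiation factors, while Eif3l is a subunit of eIF3.

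Eif4ebp2 measured 8.16, 11.7, 11.1 and 7.72 CPM in the 4 controls of set 1, 30 in cont replicate 2, and 16.3, 18.1 and 20.2 CPM at 135 min. The 135 min libraries lay above the set 1 controls and below the set 2 control. Eif4ebp1 measured 54.1, 42.2, 56.8 and 62.3 CPM in the set 1 controls, 159 in cont replicate 2, and 84.4, 71.3 and 81.1 CPM at 135 min, in the same arrangement. Eif2c2 measured 66.8, 44.3, 53.4 and 67.2 CPM in the set 1 controls, 130 in cont replicate 2, and 111, 110 and 86.7 CPM at 135 min. For each of these genes, cont replicate 2 alone overlapped or exceeded the 135 min values. At 405 min the same genes had log2 fold changes of -0.03 (Eif4ebp1), 0.22 (Eif4ebp2) and 0.05 (Eif2c2) with library set in the model, and none passed.

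Eif4a2, the less abundant eIF4A helicase (mm9 chr16:23107552-23114205, plus strand, protein coding), was the member that fell at 135 min. It measured 196, 104, 156, 170 and 158 CPM in control replicates 1 to 5, 115, 169 and 108 at 45 min, 99.5, 109 and 100 at 135 min, and 88.1, 83.9, 116 and 93.3 at 405 min. All set 1 libraries at 135 min lay below all set 1 controls. The log2 fold change at 135 min was -0.69 ± 0.14 with library set in the model (edgeR adjusted p = 0.00683), -0.72 ± 0.15 within set 1 (edgeR adjusted p = 0.0248) and -0.61 ± 0.20 with group alone (edgeR adjusted p = 0.196). Its paralog Eif4a1 had 1142, 1128, 852, 1046 and 1049 CPM in controls and 1159, 1177 and 1085 at 135 min, a log2 fold change of 0.13 ± 0.13 (edgeR adjusted p = 0.755), and -0.24 ± 0.12 at 405 min (edgeR adjusted p = 0.14). The difference between the paralogs was not tested. The transcript length implied by count and RPKM for Eif4a2 was 1.34 times its median over the libraries in cont replicate 1, 1.33 in cont replicate 4 and 1.32 in DD 45min replicate 2, against 0.911 to 1.0 in the other 12 libraries, and these 3 libraries were its 3 highest in CPM. In TPM, which takes the length into account, Eif4a2 had 90.5 to 132 in controls and 73.3 to 88.0 at 135 min. The part of this difference in length in the result was not tested. Eif4a2 also shares 185 bases of its span with Rfc4.

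**Figure D2:**
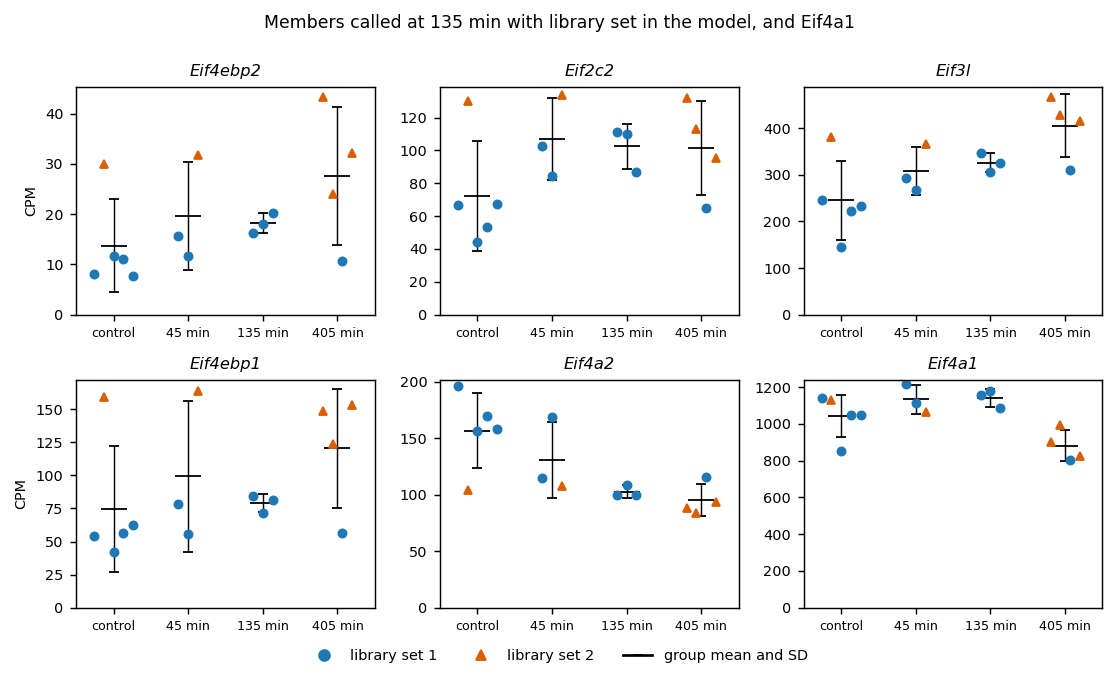
CPM in each library for the 5 members called at 135 min with library set in the model, and for Eif4a1, the paralog of Eif4a2 (circles: library set 1, triangles: library set 2, bars: group mean and SD). The control triangle stands apart from the control circles for Eif4ebp2, Eif2c2, Eif3l and Eif4ebp1, at 30, 130, 380 and 159 CPM.

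Within set 1 (3 libraries at 135 min against 4 controls), 16 of the 52 tested members lay wholly above the controls (30.8%, beside 14.6% of all tested genes) and 5 wholly below (9.62%, beside 14.8%). Those above included Eif2b4 (14.5 to 16 CPM against 0.174 to 10.7), Eif6 (113 to 120 against 34.7 to 89.6) and Eif4g1 (1163 to 1178 against 497 to 1001). Those below were Eif1a, Eif2a, Eif3a, Eif4a2 and Eif5. Within the set, edgeR called 3 members higher (Eif2c2, Eif3b and Eif4ebp2; 5.77%, beside 2.08% of all genes tested there) and 1 lower (Eif4a2; 1.92%, beside 3.48%). Across 51 members with a known GC content, the log2 fold change within set 1 at 135 min and GC content had Pearson r of 0.58, across genes, which share libraries and are not independent replicates. Within set 1 the slope of log2 CPM on GC content was -0.878 to -0.779 at 135 min and -1.346 to -0.95 in the controls. Time and this slope thus cannot be told apart at 135 min, either within set 1 or with library set in the model.

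At 405 min, 8 members rose and 7 fell in the model with group alone. The 8 are 15.4% of those tested, beside 9.99% of all tested genes higher, and the 7 are 13.5%, beside 13.4% lower. The counts by role given below hold few members each and stand beside these same shares over all tested genes. The log2 fold changes ran from -1.51 to 1.93 with a median of -0.13, beside -0.001 over all tested genes. With library set in the model 3 rose (5.77%, against 6.17% of all tested genes) and 1 fell (1.92%, against 6.87%): Eif2b4, Eif2c3 and Eif3d higher and Eif1a lower. All 15 calls had the same direction in both models and within each set. At 405 min set 1 held 1 library and set 2 held 1 control, so within-set values for this time are given with no test.

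The promoters of the members called at 405 min were searched for features known from translation genes and stress responses, and the bases around the annotated start are shown because mRNAs that start at a C and run on in pyrimidines form the class that mTOR controls. The windows are 10 bases before to 20 bases after the RefSeq start (build GRCm38.p6, other than the build of the counts), read on the strand of the gene, with the longest run of a C followed by at least 4 of C or T in capitals. Of the 8 that rose, 7 had a promoter in the table and 4 held such a run, including these 3 subunits or partners of the mRNA-binding machinery.
Eif3f: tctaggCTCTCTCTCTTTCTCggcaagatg
Eif3l: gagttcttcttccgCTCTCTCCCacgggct
Eif4b: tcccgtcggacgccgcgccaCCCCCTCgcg
The most changed member held none, nor did these 3 that fell.
Eif2b4: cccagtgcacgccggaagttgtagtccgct
Eif4a2: gaaaccccgtaggagcagggcggccgagga
Eif2s2: aaggttggctttactgtacgcctgcgcttt
Eif3a: ctcgggcggcggcgctgccgccgcgaggga
The windows lie at chr7:108934405-108934434 (plus strand), chr15:79075213-79075242 (plus), chr15:102073763-102073792 (plus), chr5:31193120-31193149 (minus), chr16:23107458-23107487 (plus), chr2:154892887-154892916 (minus) and chr19:60790674-60790703 (minus), in the order printed. Over all members with a promoter (43 genes, 57 promoters) 35.1% held a run, beside 35.8% of all 32851 promoters, and the 6 falling genes found held it in 1 of 8 promoters, a second start of Eif4e. The longest run spans the annotated start only in Eif3f. In Eif3l and Eif4b the longest run begins after the start. In Eif2ak1 and at the second start of Eif4e it ends before the start. Eif3l also holds a shorter run, left in small letters, that spans the start. A run is a description of these letters and not evidence of a regulated start.

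Among 5 genes grouped by symbol with eIF1 and eIF1A, factors that steer start codon choice, 0 rose, 1 fell and 4 did not pass. All 5 log2 fold changes were negative. Eif1a, an eIF1A gene, measured 376, 170, 537, 389 and 337 CPM in control replicates 1 to 5, 286, 337 and 157 at 45 min, 275, 297 and 274 at 135 min and 85.6, 146, 181 and 95.6 at 405 min. The 405 min values lay below all controls but cont replicate 2, the set 2 control, which overlapped only the one 405 min library of set 1. Its log2 fold change was -1.51 ± 0.31 (SE; 0.351-fold; edgeR adjusted p = 0.00509), -0.92 ± 0.20 with library set in the model (edgeR adjusted p = 0.00508), -1.18 within set 1 and -0.65 within set 2. Eif1, which guards start codon fidelity, had 172 to 309 CPM in controls and 158 to 251 at 405 min, a log2 fold change of -0.26 ± 0.20 (edgeR adjusted p = 0.319) that turned to 0.03 with library set in the model. The X-linked Eif1ay, named Eif1ax in RefSeq, was at -0.36 ± 0.13 (edgeR adjusted p = 0.0592, and -0.24 ± 0.13 with library set).

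Of the tRNA carriers, Eif2s2 fell and the other two did not pass. Eif2s2 measured 1212, 530, 1714, 1362 and 963 CPM in controls and 411, 545, 780 and 397 at 405 min, with a log2 fold change of -1.12 ± 0.32 (edgeR adjusted p = 0.0242) and of -0.49 ± 0.18 with library set in the model (edgeR adjusted p = 0.0905). Eif2s1, the alpha subunit whose phosphorylation regulates initiation, had 302, 234, 234, 302 and 312 CPM in controls and 180, 246, 275 and 202 at 405 min, and a log2 fold change of -0.29 ± 0.16 (edgeR adjusted p = 0.18, and -0.08 ± 0.13 with library set). The groups overlapped for both genes.

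The largest rise among the members, with group alone, was that of Eif2b4, the delta subunit of eIF2B (mm9 chr5:31489931-31495512, minus strand, protein coding), which belongs to the regulatory part of the complex that reads eIF2 phosphorylation. It measured 10.7, 17.4, 0.174, 6.8 and 9.56 CPM in control replicates 1 to 5, 13.7, 13.8 and 17.5 at 45 min, 16, 14.5 and 15.3 at 135 min, and 46.5, 34.2, 24.7 and 33.5 at 405 min. Every 405 min library lay above every control. The log2 fold change was 1.93 ± 0.53 (3.81-fold; edgeR adjusted p = 0.0212), 1.54 ± 0.46 with library set in the model (edgeR adjusted p = 0.0354), 1.80 within set 1 and 1.12 within set 2. The value of cont replicate 3 rests on 1 count, and without that library the log2 fold change was 1.62. The change from 135 to 405 min was 1.19 ± 0.62 (edgeR adjusted p = 0.217).

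The other eIF2B subunits did not pass. Eif2b2, the beta subunit, had a log2 fold change of 1.26 ± 0.55 (edgeR adjusted p = 0.0997), with 10.2, 25.6, 0.523, 12.2 and 12.1 CPM in controls and 40.9, 29.8, 18.0 and 29.4 at 405 min. Cont replicate 3 held only 3 counts of it, and with library set in the model it was at 0.75 ± 0.46. The catalytic subunit Eif2b5 was at 0.53 ± 0.35, Eif2b3 at 0.20 ± 0.22 and Eif2b1 at -0.32 ± 0.16, and with library set these were at 0.23, 0.06 and -0.19.

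Among the eIF2 kinases 1 of 4 rose, and all 4 log2 fold changes were at or above 0.00. Eif2ak1 (HRI, the heme-regulated kinase) measured 17.8, 24.4, 8.19, 23.4 and 19.1 CPM in controls and 41.5, 32.6, 23.0 and 31.5 at 405 min, a log2 fold change of 0.78 ± 0.26 (edgeR adjusted p = 0.0395) that was 0.53 ± 0.25 and did not pass with library set in the model. It shares 4325 bases of its span with 4921520G13Rik, and reads from these are uncertain. Eif2ak3 (PERK, the kinase of the endoplasmic reticulum) had 18.4, 19.0, 19.7, 13.9 and 17.2 CPM in controls, 21.0 to 22.1 at 135 min and 30.8, 24.2, 21.3 and 27.9 at 405 min. All of its libraries at 135 and 405 min exceeded all controls, yet its log2 fold change of 0.56 ± 0.20 at 405 min did not pass (edgeR adjusted p = 0.0532, and 0.32 ± 0.18 with library set in the model). Eif2ak4 (GCN2, the sensor of uncharged tRNA) had 60.8 to 82.0 CPM in controls and 62.6 to 79.4 at 405 min, a log2 fold change of 0.00 ± 0.16 (edgeR adjusted p = 0.992). Eif2ak2 (PKR, the kinase of double-stranded RNA) was at 0.26 ± 0.19 (edgeR adjusted p = 0.315, and 0.49 ± 0.17 and edgeR adjusted p = 0.0714 with library set).

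**Figure D3:**
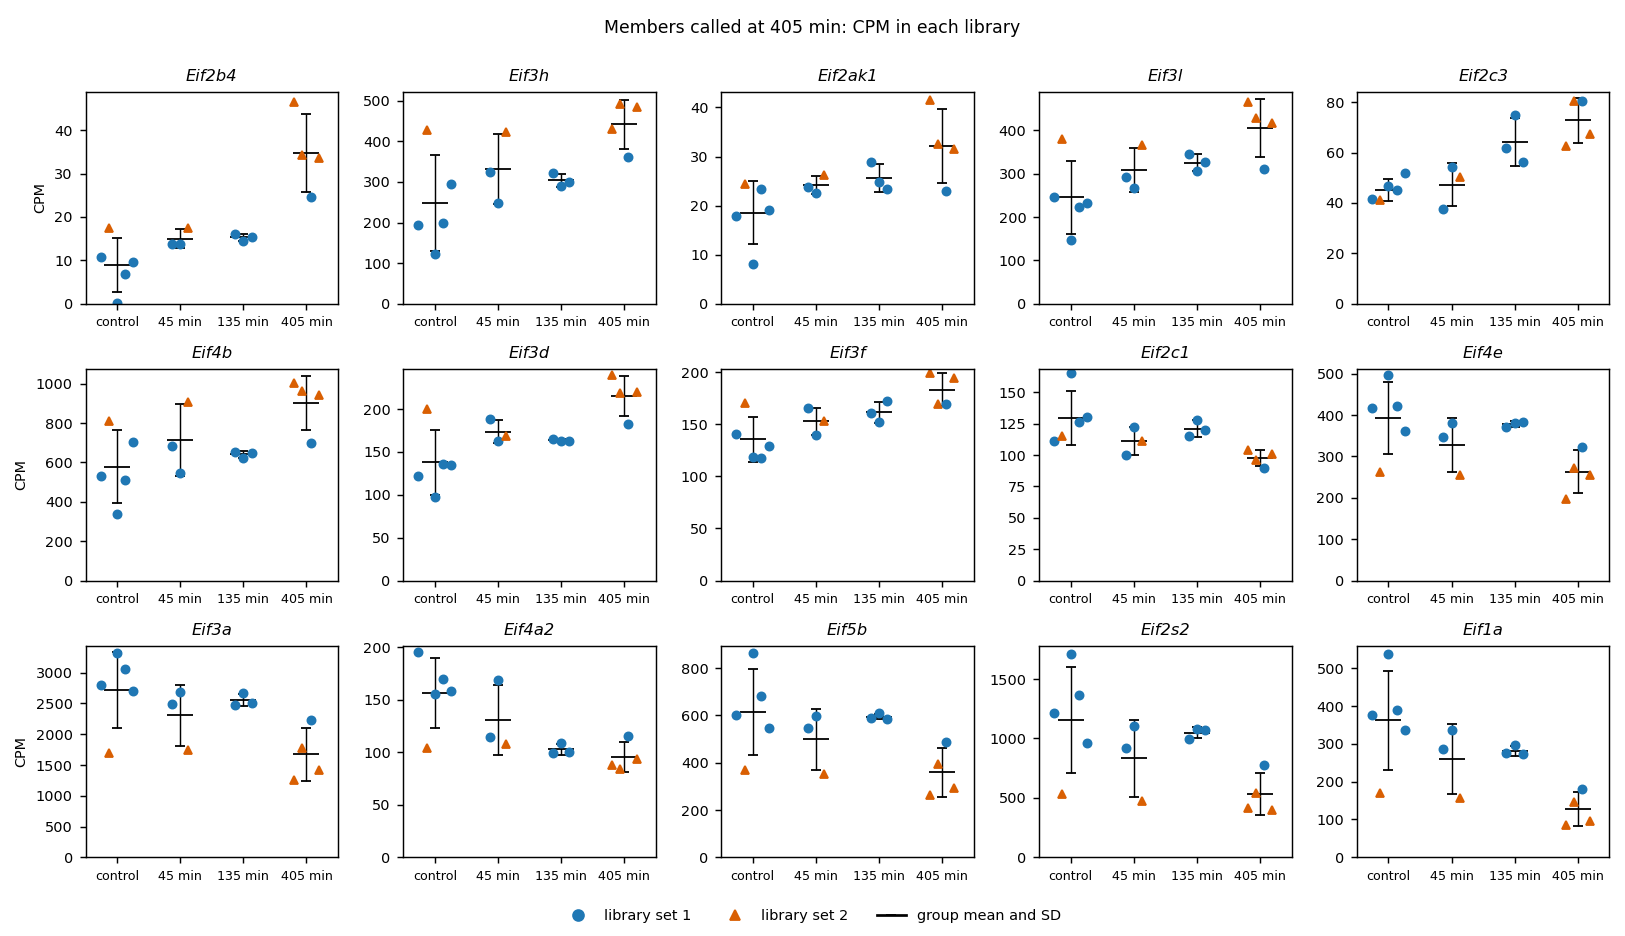
CPM in each library for the 15 members called at 405 min with group alone, largest rise first (circles: library set 1, triangles: library set 2, bars: group mean and SD). In most panels the single control triangle lies nearer the 405 min triangles than the control circles do, while Eif2b4 and Eif2c3 at 405 min stand above, and Eif2c1 below, all control points.

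At 405 min 9.99% of all tested genes were higher and 13.4% lower with group alone. Among the 13 subunits of eIF3, the complex that coats the small subunit, 4 rose, 1 fell and 8 did not pass. Those that rose were Eif3h (log2 fold change 0.83 ± 0.28), Eif3l (0.72 ± 0.21), Eif3d (0.64 ± 0.17), which can bind the cap, and Eif3f (0.43 ± 0.13), with edgeR adjusted p of 0.0411, 0.0276, 0.0167 and 0.0275. The one that fell was the largest scaffold subunit Eif3a (-0.70 ± 0.21; edgeR adjusted p = 0.0303). Eif3d measured 122, 200, 97.4, 136 and 135 CPM in controls and 240, 219, 183 and 220 at 405 min, and only cont replicate 2 reached into the range of the 405 min group. It alone of the 13 passed with library set in the model (0.46 ± 0.14; edgeR adjusted p = 0.0459), and within set 2 its log2 fold change was 0.17. Eif3h measured 194, 429, 123, 200 and 294 CPM in controls and 431, 493, 361 and 484 at 405 min. Eif3l measured 245, 380, 146, 222 and 232 CPM in controls and 466, 429, 310 and 416 at 405 min. For Eif3h and Eif3l the set 2 control lay above the 405 min library of set 1. Eif3f measured 141, 171, 119, 118 and 129 CPM in controls and 199, 170, 170 and 195 at 405 min. Eif3a measured 2802, 1697, 3324, 3057 and 2706 CPM in controls and 1253, 1781, 2233 and 1422 at 405 min, again with cont replicate 2 inside the later range. With library set in the model Eif3h, Eif3l, Eif3f and Eif3a did not pass, at 0.51, 0.42, 0.33 and -0.33.

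In the direct comparison of 405 with 135 min, 2 members were lower, both of them eIF3 subunits (3.85%, beside 2.82% of all tested genes), and 0 were higher (beside 2.24%). Eif3j, a loosely bound subunit, had 215, 202, 186, 222 and 207 CPM in controls, 274, 274 and 247 at 135 min and 147, 203, 177 and 153 at 405 min. The 135 min libraries exceeded every control, and the 405 min libraries overlapped the controls. The log2 fold change from 135 to 405 min was -0.64 ± 0.15 (edgeR adjusted p = 0.0256). Eif3j is Eif3j1 in RefSeq and has a near-identical copy, Eif3j2, and reads of the 2 genes could be split between them, so its values are uncertain. Eif3g, an RNA-binding subunit, had 147 to 174 CPM in controls, 193, 167 and 186 at 135 min and 115, 134, 148 and 130 at 405 min, a log2 fold change of -0.47 ± 0.13 from 135 to 405 min (edgeR adjusted p = 0.0498). With library set in the model 0 members differed between these times, where 1.66% of all tested genes were higher and 2.01% lower.

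Among 11 tested genes grouped by symbol with eIF4F, all Eif4 genes but the eIF4E binders, 1 rose, 2 fell and 8 did not pass. Eif4b, which stimulates the helicase, measured 532, 809, 336, 511 and 706 CPM in controls and 1005, 963, 697 and 941 at 405 min (log2 fold change 0.64 ± 0.22; edgeR adjusted p = 0.0484). The cap binder Eif4e measured 416, 262, 497, 422 and 362 CPM in controls and 198, 272, 324 and 256 at 405 min (-0.58 ± 0.19; edgeR adjusted p = 0.0388). Eif4a2 fell by 0.72 on the log2 scale with group alone (edgeR adjusted p = 0.0154), and was at -0.43 ± 0.14 with library set in the model (edgeR adjusted p = 0.0581). In the model with library set Eif4b was at 0.34 and Eif4e at -0.26, and neither passed. The scaffold Eif4g1 had 497 to 1263 CPM in controls and 791 to 1176 at 405 min, a log2 fold change of 0.10 ± 0.20 (edgeR adjusted p = 0.723).

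None of the 3 tested eIF4E binders passed at 405 min. Eif4ebp1 measured 149, 124, 56.1 and 153 CPM at 405 min, where the 56.1 belongs to the one library of set 1 and sits among the set 1 controls (42.2 to 62.3 CPM), and the other three sit with cont replicate 2 at 159. Its log2 fold change was 0.68 ± 0.40 with group alone (edgeR adjusted p = 0.203), 0.05 within set 1 and -0.18 within set 2. Eif4ebp2 was at 1.0 ± 0.44 (edgeR adjusted p = 0.104) and Eif4enif1, the nuclear transporter of eIF4E, at -0.40 ± 0.16 (edgeR adjusted p = 0.0746, and -0.20 ± 0.13 with library set).

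Of the 5 late factors 1 fell and 4 did not pass. Eif5b, the GTPase of subunit joining, measured 603, 371, 865, 684 and 547 CPM in controls and 264, 393, 488 and 292 at 405 min (log2 fold change -0.77 ± 0.24; edgeR adjusted p = 0.0334; -0.36 and not past the threshold with library set in the model). It shares 2794 bases of its span with Rev1, and the strand used in counting is not given in the sources used here, so reads from the shared bases are uncertain. Eif6, which keeps the subunits apart, measured 89.6, 162, 34.7, 75.8 and 67.7 CPM in controls and 130, 156, 95.1 and 125 at 405 min (0.56 ± 0.30; edgeR adjusted p = 0.172, and 0.24 ± 0.25 with library set). Eif5a, known for its hypusine and for elongation, measured 498, 1313, 302, 391 and 481 CPM in controls and 1185, 1168, 475 and 910 at 405 min (0.65 ± 0.39; edgeR adjusted p = 0.215, and 0.03 ± 0.19 with library set), where the one library of set 1 at 475 lay within the set 1 controls (302 to 498 CPM).

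The Argonaute genes, which are not initiation factors, went in both directions. Eif2c3 (Ago3; mm9 chr4:126017922-126106786, minus strand, protein coding) measured 41.4, 41.0, 46.7, 45.3 and 51.8 CPM in controls, 37.6, 54.1 and 50.3 at 45 min, 61.9, 74.9 and 56.1 at 135 min and 62.8, 80.6, 80.4 and 67.3 at 405 min. All libraries at 135 and 405 min exceeded all controls. The log2 fold change at 405 min was 0.69 ± 0.15 (1.61-fold; edgeR adjusted p = 0.00681), 0.73 ± 0.16 with library set in the model (edgeR adjusted p = 0.00578), 0.79 within set 1 and 0.77 within set 2. Eif2c1 (Ago1) measured 111, 115, 165, 126 and 130 CPM in controls and 104, 96.2, 89.7 and 101 at 405 min, below every control (-0.41 ± 0.13; edgeR adjusted p = 0.0356, and -0.39 ± 0.14 and edgeR adjusted p = 0.0744 with library set in the model). Groups that did not overlap at 405 min were found for 3 members above the controls (Eif2ak3, Eif2b4 and Eif2c3; 5.77%, beside 6.75% of all tested genes) and 1 below (Eif2c1; 1.92%, beside 6.43%).

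**Figure D4:**
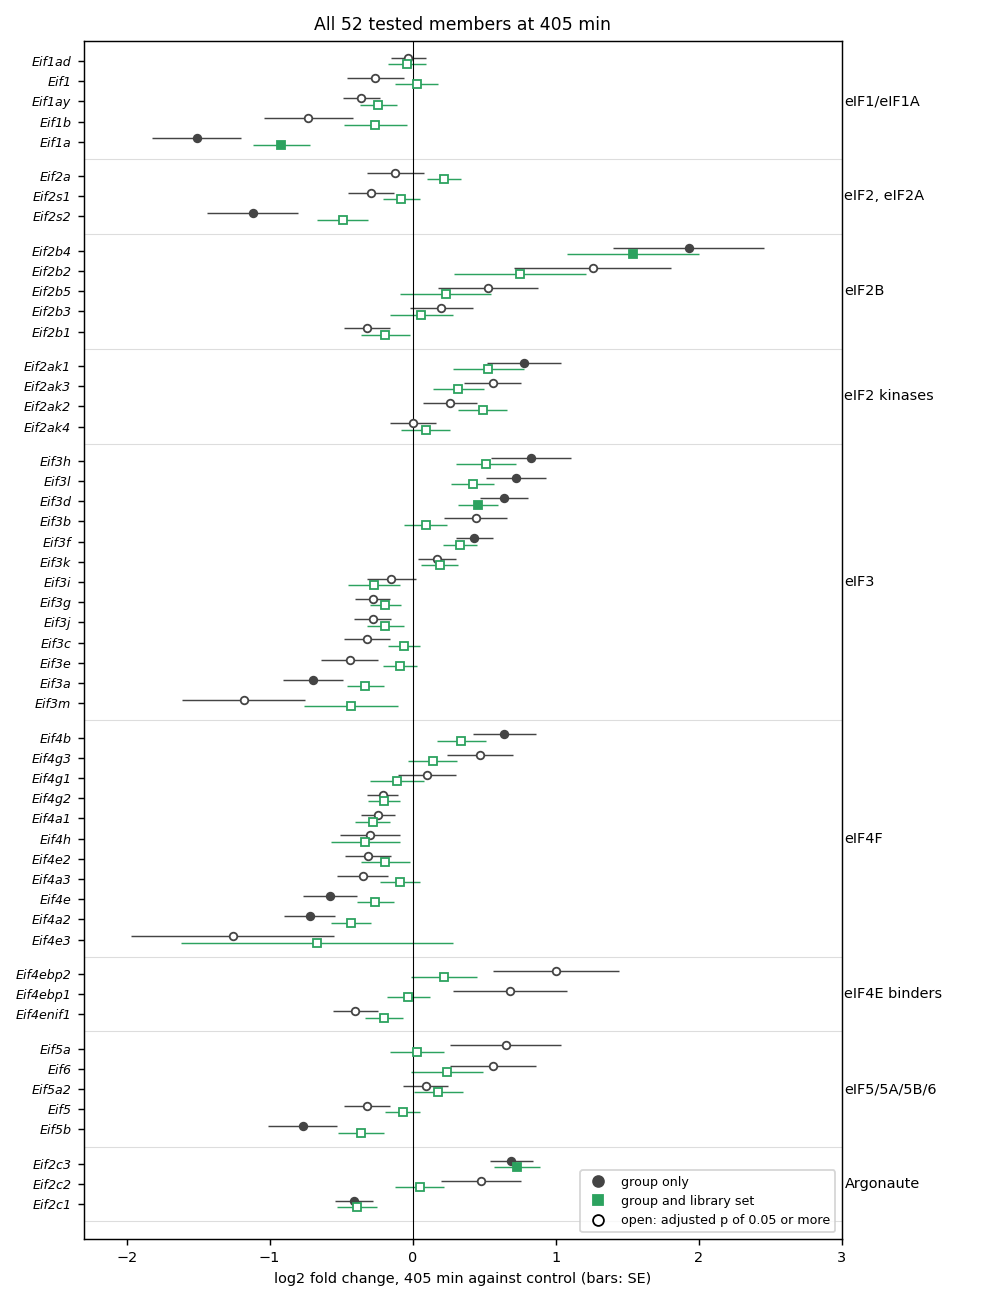
Log2 fold change at 405 min against control for the 52 tested members by role, with group alone (circles) and with library set in the model (squares), bars showing the SE and filled symbols an adjusted p under 0.05. The squares lie nearer 0 than the circles for most members, and 4 remain filled: Eif1a, Eif2b4, Eif2c3 and Eif3d.

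The members that rose at 405 min were richer in GC than those that fell. Of the 8 members that rose 7 had transcripts of over 49% GC, the exception being Eif2c3 at 41.8%, and of the 7 that fell 6 were under 45%, the exception being Eif2c1 at 50.8%. Of the 36 uncalled members with a known GC content 25 were over 49%, with a median of 50.5%, equal to that of the risers (50.5%) and above that of the fallers (42.1%). Across the 51 members with a known GC content the log2 fold change and GC content had Pearson r = 0.58 and Spearman rho = 0.56 with group alone, and 0.37 and 0.37 with library set in the model. Within set 1 Pearson r was 0.34 over 51 members, and within set 2 it was 0.06 over 53. These are descriptions across genes measured in the same libraries. The library set moved with the 405 min group, and the part of base composition in the calls was not tested beyond these models.

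**Figure D5:**
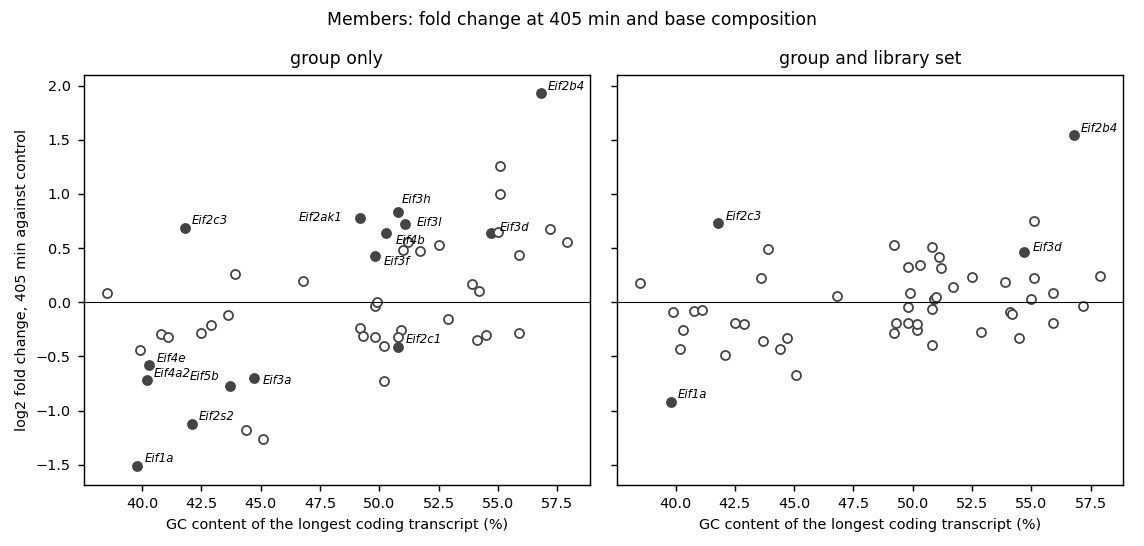
Log2 fold change at 405 min against control plotted on the GC content of the longest coding transcript for 51 members, with group alone (left) and with library set in the model (right), filled points having an adjusted p under 0.05. On the left the rising members lie mainly above 49% GC and the falling ones mainly below 45%, with Eif2c3 and Eif2c1 as exceptions, and on the right 4 filled points remain.

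Tested over all times together, 2 members changed in the model with group alone, Eif1a (edgeR adjusted p = 0.0332) and Eif2c3 (edgeR adjusted p = 0.0221), beside 9.69% of all tested genes. When library set was added 4 did, Eif1a, Eif2c2, Eif2c3 and Eif4a2, beside 13.1% of all tested genes.

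A list of 47 other genes of translation, from elongation, termination and recycling factors to poly(A) binding proteins, mTOR signalling and control of eIF2 phosphorylation, gave a comparison. Of these, 46 were in the tables and 45 were tested. At 405 min 3 rose (6.67%, beside 9.99% of all tested genes) and 8 fell (17.8%, beside 13.4%), with a median log2 fold change of -0.22, and at 135 min 0 passed. Of those past the threshold, the most changed at 405 min were Paip2, an inhibitor of poly(A) binding protein (-1.89 ± 0.54), Sesn2, a stress-induced inhibitor of mTORC1 (1.70 ± 0.52), Rptor, the raptor subunit of mTORC1 (1.55 ± 0.32), the reinitiation factor Denr (-1.16 ± 0.30), the stress gene Chac1 (-1.04 ± 0.29) and the recycling factor Abce1 (-1.0 ± 0.23), with edgeR adjusted p of 0.0248, 0.0310, 0.00462, 0.0151, 0.0214 and 0.00868. After library set was added 3 of the list rose (6.67%, beside 6.17% of all tested genes) and 7 fell (15.6%, beside 6.87%). Paip2 and Sesn2 then missed the threshold, at -0.88 and 0.76, and Rptor, Denr, Chac1 and Abce1 passed, at 0.97, -0.59, -1.19 and -0.58.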

How the data were processed

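RNA was collected with the RNeasy mini kit, and libraries were sequenced on an Illumina HiSeq. Per the labels all 15 were made with the Encore Complete RNA-seq kit, while the study's methods describe both a manual preparation from poly(A) RNA and an Encore kit on an automated system. Which library had which is not given in the sources used here, and a part of preparation in the library sets was not tested. The authors mapped reads to mm9 and deposited, for each library, estimated counts per RefSeq gene, of which 8.7 to 15.6% were fractional, and RPKM. Expected counts were rounded to whole numbers here and RPKM was rescaled to TPM. The transcript model differed between tables for 940 genes, 2 of them members, and the length implied by count and RPKM varied over 1.1-fold for 3 members (Eif4a2, Eif4e2 and Eif2b4). For Eif4e2 this length, relative to its median, was 1.255 to 1.258 in the set 2 libraries and 0.973 to 1.008 in those of set 1. Its transcript model thus moved with library set, and the part of this in its values was not tested.

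Genes with at least 1 count in all 15 libraries were fitted with edgeR 4.0.16 in R 4.3.3 (TMM factors, quasi-likelihood test, 1 term per group, all 15 libraries sharing the spread), with Benjamini-Hochberg adjustment over 10276 genes and a threshold of 0.05. CPM are TMM-scaled. The planned test was written for counts, and rounding adapted it. The fit was tested on simulated counts. Alternatives were DESeq2 1.42.0, other scaling and filters, fits of the compared groups only, a replicate block, library set as a term or within sets, and leaving out each library. Library sets were defined by the slope of log2(CPM + 0.5) on GC content and split at the widest gap. For this slope CPM was not TMM-scaled. GC content was known for 95.0% of tested genes, from the longest GENCODE vM1 coding transcript. The 22 replicate pairs differed beyond sampling noise (chi-square per degree of freedom 12.0 to 274.4). The low end of the control range of Eif2b4 rests on 1 count in cont replicate 3. Scaled to library size it was 0.174 CPM there and 6.8 to 17.4 CPM in the other controls. That library was the smallest and also had the lowest slope on GC content, -1.346. The cause of the low count was not tested.

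The genes given values were up to 10 rising and 10 falling members past the threshold at 135 or 405 min with group alone, 10 members set by name, the 2 with the lowest p at 45 min, and up to 6 of the other translation genes. Those named with library set in the model, and others outside this rule, were chosen after their values were seen. The members and lists were chosen with earlier results of these data known. Promoters and start windows came from RefSeq (GRCm38.p6), and the search for pyrimidine runs was added after seeing the data.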

Additional observations from a re-analysis of the deposited data

Results flagged for a closer look

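Within the 5 control libraries, cont replicate 2 stood apart from the other four for 3 members. Eif2c2 measured 130 CPM there against 44.3 to 67.2 CPM in the others, Eif4ebp1 159 against 42.2 to 62.3, and Eif4ebp2 30 against 7.72 to 11.7. In each case its gap to the nearest control exceeded the 95% limit of Dixon's test. The test was run on 54 groups of 27 members, and 3 were marked. Its rate of about 1 group in 20 by chance holds for members chosen without these data. Eif2c2 and Eif4ebp2 were included because they passed at 135 min with library set in the model, so the rate does not apply to this count. Cont replicate 2 is the only control in library set 2.

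The effects at 135 and at 405 min differed by a direct test for Eif3g, with a log2 fold change of -0.47 from 135 to 405 min, and for Eif3j, with -0.64. Neither difference passed with library set in the model.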

How the results depend on the processing

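The counts at 405 min depended on the libraries and the model. The 8 members that rose became 4 with no filter, 1 with only the compared groups and 1 with the replicate block. They became 3 with library set in the model and 1 with replicate block and library set. With 1 library left out they ranged from 1 (without DD 405min replicate 1 or 4) to 17 (without cont replicate 2). The 7 that fell became 12 in DESeq2, 1 with only the compared groups, 1 with the replicate block, 1 with library set and 1 with both. With 1 library left out they ranged from 1 (without DD 405min replicate 1, 2 or 4) to 15 (without cont replicate 2). Every left-out control but replicate 5, and every left-out 135 or 405 min library, moved at least 1 of these counts by over 1.5 times. At 135 min, the 0 that rose became 4 with library set, 2 with both terms and 3 within set 1, and the 0 that fell became 1 in each of these and 0 to 1 (without cont replicate 2) with a library left out. From 135 to 405 min, the 0 higher became 5 with only the compared groups and 0 to 1 with a library left out. The 2 lower became 0 with total counts, 7 in DESeq2, 0 with no filter, 1 with filterByExpr and 14 with only the compared groups. They became 0 with the replicate block, 0 with library set, 0 with both and 0 to 8 (without DD 405min replicate 3) with a library left out. The 2 changed at any time became 11 in DESeq2, 1 with no filter, 0 with the replicate block, 4 with library set and 4 with both. With a library left out they became 0 to 23 (without cont replicate 2). Within-set fits at 405 min have 1 library at that time (set 1) or 1 control (set 2), assumed to vary like the other groups. No counts of calls are given for them. The cause was not tested.

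The following single values turned in sign. Eif2ak4 at 405 min was -0.011 with DESeq2 size factors, -0.013 in DESeq2, -0.005 with no filter, -0.024 with filterByExpr, -0.03 with the replicate block and -0.10 within set 2. Eif4ebp1 at 405 min was -0.029 with library set, -0.020 with both terms and -0.18 within set 2. Eif4g1 at 405 min was -0.105 with library set, -0.055 with both terms, -0.10 within set 1 and -0.27 within set 2. Eif1 at 405 min was 0.026 with library set, 0.115 with both terms and 0.061 within set 1, and Eif6 was -0.25 within set 2. With 1 library left out, Eif2ak4 ranged from -0.081 to 0.070 and Eif4g1 from -0.084 to 0.238 at 405 min, and Eif4ebp1 from -0.062 to 0.548 at 135 min.

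Over 30 results of single members and 584 alternative values, 360 kept direction and side of the threshold, 179 missed it, 19 newly passed it and 26 turned in sign. The alternative values include the within-set fits with 1 library on a side. The 15 members called at 405 min kept their direction under every alternative run. With total counts as scaling, the median log2 fold change over all tested genes at 405 min was 0.114, beside -0.001 with TMM factors. From 135 to 405 min it was 0.175, beside 0.042. In that comparison the 230 higher and 290 lower genes became 325 and 193. Replicate numbers were treated as labels and not as pairs. Deviations of same-numbered libraries from their group means correlated at -0.11 on average (19 pairs) and of other pairs at 0.03. Pairs in 1 library set correlated at 0.16 and pairs across sets at -0.17. Library set was not removed from these deviations, so they cannot decide whether equal numbers mark pairs. Eif2b4 and Eif2b2 had only 1 and 3 counts in cont replicate 3, and the cause was not tested.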

Other observations

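In the 300 bases around the RefSeq starts (250 before to 50 after, GRCm38.p6), the E-box CACGTG, which reads the same on both strands, occurred in 12 of 57 member promoters (21.1%), of 10 genes, beside 7.15% of all 32851 promoters. The genes were Eif1b, Eif3a, Eif3f, Eif3k, Eif4a1, Eif4e, Eif4g1, Eif4h, Eif5a and Eif5a2. It was in 1 of 7 promoters of members that rose at 405 min (Eif3f) and in 2 of 8 of those that fell (Eif3a and Eif4e). The antioxidant response element TGACNNNGC, on either strand, occurred in 12.3% of member promoters and 12.4% of all, with Eif2b4 among the members, and the C/EBP-ATF response element TGATGNAA, on either strand, in 0 of 57 and 3.97% of all. These are matches of letters in a window.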
